A study of Mus musculus with 10 samples.

Results

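A set of 10 genes of the Hippo pathway read-out were followed in lymphatic endothelial cells (LEC) of mouse tumours: the transcripts of 8 genes that the co-activators YAP and TAZ are known to induce (Ctgf, Cyr61, Ankrd1, Amotl2, Ajuba, Lats2, Axl and Crim1) and those of the co-activators themselves (Yap1 and Wwtr1, the gene of TAZ). They were picked by symbol, and each symbol matched a single row, giving 10 of the 23510 genes in the table. The set was proposed with the anti-Ang2 against IgG results of these same libraries in view. The differences between treatments of these 10 genes are therefore given as a description, with no test of their own. The LEC were sorted by flow cytometry from MT-ret melanoma fragments that had been implanted on the flank of C57BL/6N mice. In 5 mice an antibody against angiopoietin-2 (anti-Ang2), which blocks a ligand of the endothelial receptor Tie2, had been injected 12 hours before the animals were killed. The other 5 mice had received IgG at the same time before death, and all mice carried the same tumour. A single library was made per mouse, with 0.5 ng of RNA as input.

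YAP and TAZ bind no DNA by themselves. They enter the nucleus, join TEAD transcription factors and switch on genes of matrix, cytoskeleton and growth, in response to stretched cell shape, stiff matrix or loss of cell contact. The kinase cascade of MST1 and MST2 with LATS1 and LATS2 phosphorylates them and keeps them in the cytoplasm. Some of their target genes, Lats2 and Amotl2 among them, encode proteins that restrain YAP and TAZ in turn, which closes a feedback loop. In the lymphatic endothelium of mice, YAP and TAZ are known to restrain the lineage regulator Prox1 and to be needed for vessel growth and valves. Much of their control lies in phosphorylation and in where the protein sits, which RNA levels do not show.

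TEAD factors bind the letters GGAATG, so the promoter windows of the genes were searched for them on both strands. A window of 300 bases, from 250 before to 50 after the start of transcription, was given by RefSeq (GRCm38.p6, the same assembly as mm10) for 9 of the 10 genes. Ctgf had no window. All 9 genes held GGAATG in a window, against 16.6% of the 27025 genes with windows of that length. The longer GGAATGT, which contains the shorter one, was found in 5 of the 9, against 4.47%. Apart from Yap1 and Wwtr1, the genes were listed as known targets of YAP and TAZ, which act through TEAD. The higher shares are therefore no independent support for the list. A match is a run of letters and does not show binding. The sites are printed here because they are a feature of the genes that none of the RNA values used. Each is written in the direction that reads GGAATG, with these letters in capitals.
Cyr61, chr3:145650075-145650096: acatctcaGGAATGttggttgg
Ankrd1 upstream site, chr19:36120041-36120062: ctgccaaaGGAATGaccctctc
Ankrd1 downstream site, chr19:36119954-36119975: ctaagtctGGAATGaaaattca
Amotl2, chr9:102717731-102717752: ctatgccaGGAATGtgagagtt
Ajuba upstream site, chr14:54577834-54577855: ggcactgtGGAATGtatccatc
Ajuba downstream site, chr14:54577812-54577833: ttacagttGGAATGcgcggagg
Lats2, chr14:57746106-57746127: acgcccgtGGAATGccaacaat
Axl, chr7:25788953-25788974: attctacaGGAATGtttaccag
Crim1, chr17:78200161-78200182: cgggggggGGAATGaggtagga
Yap1, chr9:8004724-8004745: agtctgcaGGAATGtagcgacg
Wwtr1, chr3:57576033-57576054: aactcaaaGGAATGcagatagg

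The site of Amotl2 began 65 bases and that of Crim1 79 bases before the start. Those of Cyr61, Wwtr1, Yap1 and Axl lay 103, 136, 141 and 233 bases before it, and the site of Lats2 began 4 bases past it. Ankrd1 (123 and 210 bases before the start) and Ajuba (164 and 186) had 2 sites each. The distances hold for the RefSeq start of each window, and a gene can have several starts. Lats2 had a further window, which held no GGAATG. In a further window of Wwtr1 the same site lay 170 bases before the start. The windows of Ankrd1, Lats2 and Amotl2 lie inside the gene spans given below, so their starts are not the outermost ones. The promoters of Ankrd1 and Cyr61 are shown whole because these genes gave the highest fold change and the highest level among the genes with a window. Capitals mark GGAATG or, where it lies on the other strand, CATTCC.
Ankrd1, minus strand of chr19:36119795-36120094: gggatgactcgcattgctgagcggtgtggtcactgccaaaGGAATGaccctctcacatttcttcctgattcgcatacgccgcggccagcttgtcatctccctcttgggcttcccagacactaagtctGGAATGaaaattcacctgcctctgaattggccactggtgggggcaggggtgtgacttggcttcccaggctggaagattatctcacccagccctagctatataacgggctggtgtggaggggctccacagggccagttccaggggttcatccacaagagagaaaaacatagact
Cyr61, minus strand of chr3:145649936-145650235: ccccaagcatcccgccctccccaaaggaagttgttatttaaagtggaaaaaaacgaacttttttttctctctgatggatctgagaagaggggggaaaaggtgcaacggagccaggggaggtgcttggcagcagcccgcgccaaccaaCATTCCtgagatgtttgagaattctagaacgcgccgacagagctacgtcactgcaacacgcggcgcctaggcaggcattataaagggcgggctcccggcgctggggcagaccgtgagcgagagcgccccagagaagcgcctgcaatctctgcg

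Library totals ran from 38090933 to 51786044 counts in anti-Ang2 and from 40313230 to 83850341 in IgG libraries. All 9 LEC markers, Prox1, Lyve1, Pdpn and Flt4 among them, were present in every library, and their summed level was 14950 to 19985 CPM after anti-Ang2 and 17959 to 21261 CPM after IgG (CPM, the share of a library's counts, is here scaled by TMM). Within this sum the markers went both ways. On average Lyve1 (5646 CPM after anti-Ang2 and 4655 CPM after IgG) and Reln (921 and 684) were higher after anti-Ang2. Prox1 (1161 and 1283), Pdpn (229 and 276) and Flt4 (2338 and 3199) were lower. So were Ccl21a (379 and 883), Mmrn1 (5502 and 6658) and Pecam1 (1241 and 1402), and Cdh5 was alike (322 and 323). Transcripts of other cells were present as well. All 11 melanoma markers were found, with a sum of 1129 to 5565 CPM in anti-Ang2 and 267 to 1857 CPM in IgG libraries, and Gpr143 alone was at 0 in any library (1 of 10). The 14 macrophage markers summed to 72.8 to 290 CPM and 53.7 to 208 CPM, with Fcgr1 at 0 in 5 libraries and Adgre1 in 2. Of these, Mrc1 averaged 35.5 CPM after anti-Ang2 and 40.0 CPM after IgG. The remaining macrophage markers, such as Lyz2 (62.3 and 22.9 CPM), were higher after anti-Ang2 on average. The 8 pericyte markers summed to 154 to 439 CPM and 60.2 to 236 CPM, and Myh11 was at 0 in 3 libraries. These markers went both ways. On average Cspg4 (172 CPM after anti-Ang2 and 53.2 CPM after IgG), Kcnj8 (62.3 and 23.4), Abcc9 (38.1 and 19.3) and Acta2 (39.8 and 31.3) were higher after anti-Ang2. Rgs5 (3.29 and 7.83), Pdgfrb (4.69 and 8.15), Notch3 (0.61 and 3.90) and Myh11 (0.87 and 1.02) were lower. The 8 fibroblast markers summed to 212 to 742 CPM and 195 to 923 CPM, with Pdgfra at 0 in 4 libraries. This sum joins opposite differences: Dcn averaged 332 CPM after anti-Ang2 and 144 CPM after IgG, but Col1a1 22.6 and 91.9, Col1a2 12.9 and 67.5 and Col3a1 41.2 and 127. The 7 markers of blood endothelium summed to 2160 to 4443 CPM and 3277 to 5329 CPM. Most of this was Plvap (on average 2216 and 4022 CPM). Cd34 and Vwf were also lower after anti-Ang2, and Flt1, Nrp1, Emcn and Sox17 were higher on average. In a principal component analysis, component 1 held 23.6% of the variance. On it, anti-Ang2 1, 2 and 3 lay at -65.4, -54.2 and -61.0, and anti-Ang2 4 at -21.3. Anti-Ang2 5 (25.0) lay within the IgG range (7.33 to 72.4). Anti-Ang2 1, 2 and 3 were also the libraries of highest melanoma sum. Component 2 set anti-Ang2 5 (-102) away from the remaining libraries (-34.1 to 35.7). Component 3 set anti-Ang2 4 (75.8) away from the others (-44.1 to 41.9). In sorted bulk RNA, fewer cells of a type and less RNA per cell cannot be told apart.

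Ctgf was higher in every anti-Ang2 library than in any IgG library, and the groups overlapped for the other 9 genes. In Ankrd1 and Crim1 the overlap was slight, with 4 of 5 anti-Ang2 libraries above the highest IgG library. In Yap1, Wwtr1, Lats2, Amotl2 and Ajuba at most 1 anti-Ang2 library lay above it. Of the 10 genes, 8 had a log2 fold change above 0, as did 52% of the 16240 genes tested. The median of the 10 was 0.27, and that of all tested genes 0.01. All 10 genes passed the filter on low counts. With edgeR's quasi-likelihood test across all genes, 2 of them (Ctgf and Ankrd1) had an adjusted p under 0.05, where 4.13% of all tested genes had. Both were higher, as were 1.34% of tested genes, and 0 were lower, against 2.8% (also 0 at an unadjusted p under 0.05, and 0 by DESeq2 and limma-voom). The groups did not overlap in 1 gene, Ctgf, against 6.1% of tested genes in either direction and 3.76% with anti-Ang2 lower. Since this contrast was known when the genes were chosen, nothing is read from these counts.

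**Figure D1:**
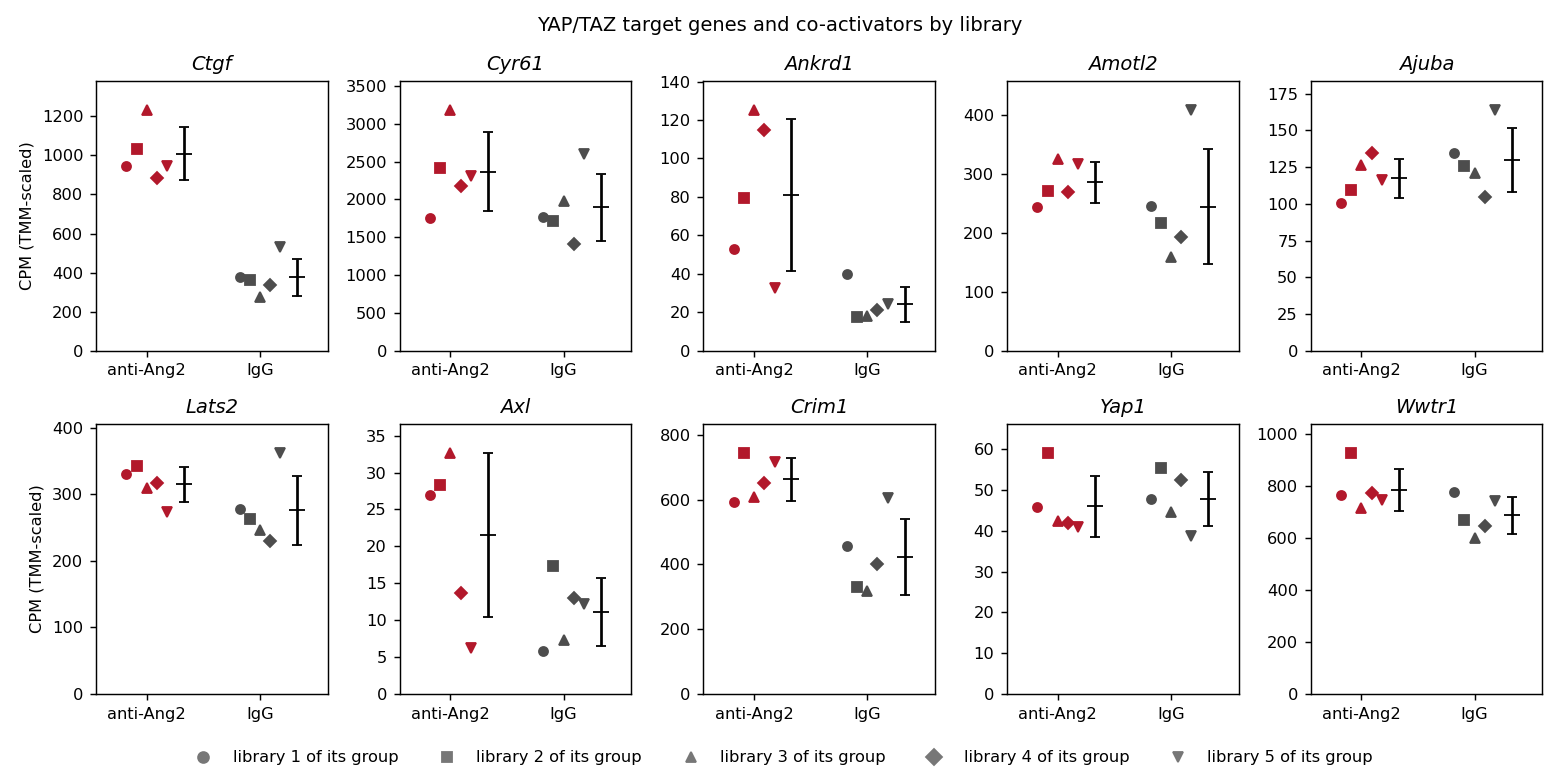
Each panel plots the CPM (linear axis from 0) of 1 gene in the 5 anti-Ang2 libraries (red, left) and the 5 IgG libraries (grey, right), with a marker shape for each library and the mean ± SD beside the points. Ctgf is the gene whose groups do not overlap, from 887 CPM upwards after anti-Ang2 against at most 529.7 CPM after IgG.

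Of the co-activators, Wwtr1 was the abundant one and Yap1 the scarce one, and neither differed much with treatment. Wwtr1 had 764, 925, 713, 771 and 746 CPM in anti-Ang2 libraries 1 to 5, against 776, 668, 600.3, 647 and 740.2 CPM in IgG libraries 1 to 5. The groups overlapped, with anti-Ang2 2 above and IgG 3 below the rest. The log2 fold change of Wwtr1 was 0.19 ± 0.10 (SE, anti-Ang2 over IgG, as are all fold changes here). Yap1 had 45.9, 59.1, 42.4, 41.9 and 40.9 CPM in anti-Ang2, against 47.8, 55.4, 44.5, 52.6 and 38.7 CPM in IgG libraries. These ranges lay on top of each other, and the log2 fold change was -0.05 ± 0.13. Per length, the authors' FPKM (fragments scaled by transcript length and library size) of Wwtr1 averaged 171 ± 12.8 in anti-Ang2 and 148 ± 16.2 in IgG libraries (SD, n = 5 each), and that of Yap1 5.17 ± 0.64 and 5.32 ± 0.81. Within single libraries, Wwtr1 was 30.3 to 35.7 times Yap1 after anti-Ang2 and 23.4 to 37.0 times after IgG. Wwtr1 (ENSMUSG00000027803.14) spans chr3:57455649-57575910 (minus strand) and Yap1 (ENSMUSG00000053110.13) spans chr9:7931999-8004596 (minus strand). These and the following spans are mm10 positions from GENCODE M21 and cover whole genes, with exons, introns and untranslated regions.

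Ctgf and Cyr61 encode the paralogous matricellular proteins CCN2 and CCN1, which bind integrins and growth factors, and both are standard read-outs of YAP and TAZ. They parted here. Ctgf had 948, 1035, 1233, 887 and 946 CPM after anti-Ang2, against 379.9, 362, 275, 335 and 529.7 CPM after IgG. All 5 anti-Ang2 libraries lay above every IgG library, a pattern that 2.34% of tested genes showed in this direction. The log2 fold change was 1.42 ± 0.16. It lay between 1.27 and 1.58 over 20 alternative fits of these same libraries. It was 1.32 ± 0.23 with the melanoma marker sum as a covariate, 1.42 ± 0.20 with the macrophage sum and 1.44 ± 0.16 with the fibroblast sum. Without anti-Ang2 1, 2 and 3, the libraries of highest melanoma sum, it was 1.27 ± 0.20, and without anti-Ang2 4 and 5 it was 1.497 ± 0.19. The part of other cells in this difference was not tested, and no fit used the pericyte or blood endothelial markers.

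Cyr61 had 1757, 2413, 3184, 2182.3 and 2307 CPM after anti-Ang2, against 1769, 1719, 1982, 1417 and 2599 CPM after IgG. Only anti-Ang2 3 lay above the highest IgG library, and the lowest anti-Ang2 library lay below 3 of the IgG libraries. Its log2 fold change was 0.32 ± 0.18. The authors' FPKM of Cyr61 was 3.31 ± 0.40 times that of Ctgf after anti-Ang2 and 7.30 ± 1.67 times after IgG (SD, n = 5 each). The ratio ran from 2.63 to 3.66 in anti-Ang2 and from 6.00 to 10.2 in IgG libraries, with no overlap. Ctgf (ENSMUSG00000019997.11) spans chr10:24595442-24598683 (plus strand) and Cyr61 (ENSMUSG00000028195.4) spans chr3:145646976-145649981 (minus strand). Of the other CCN genes, none passed the test. Nov (CCN3) averaged 14.5 ± 5.56 CPM after anti-Ang2 and 27.5 ± 10.9 CPM after IgG (adjusted p = 0.148 by edgeR), and Wisp2 (CCN5) 9.38 ± 4.33 and 28.7 ± 18.6 CPM (0.127). Wisp1 (CCN4) averaged 6.01 ± 1.62 and 5.24 ± 1.56 CPM (0.776). Wisp3 had 83 counts over all libraries and was not tested.

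**Figure D2:**
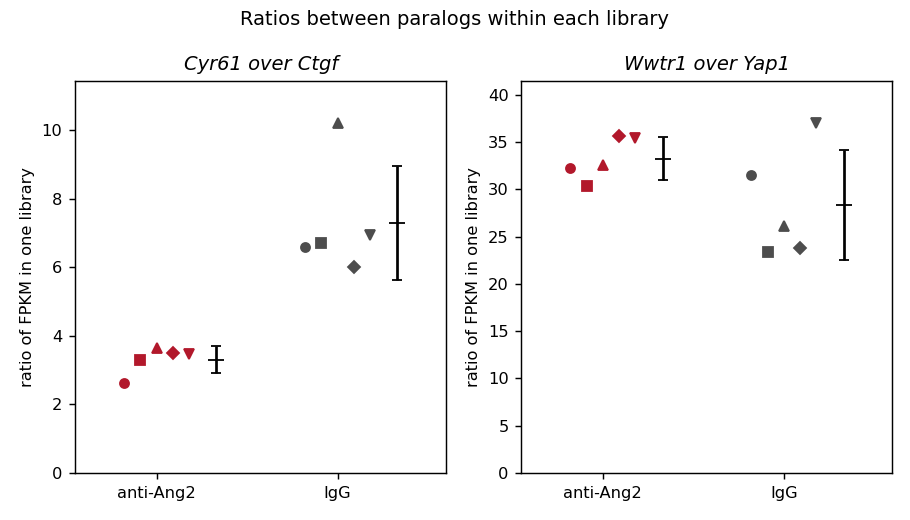
Ratio of the authors' FPKM of Cyr61 to Ctgf (left panel) and of Wwtr1 to Yap1 (right panel) within each of the 5 anti-Ang2 (red) and 5 IgG libraries (grey), with the mean ± SD beside the points, on linear axes from 0. The first ratio is 2.63 to 3.66 after anti-Ang2 and 6.00 to 10.2 after IgG, while the second overlaps.

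Ankrd1, a nuclear ankyrin-repeat protein first known from stressed heart muscle, had the largest fold change of the 10 and, after Axl, the widest spread. It had 52.8, 79.5, 125, 115 and 32.5 CPM after anti-Ang2, against 39.9, 17.5, 17.9, 21.02 and 24.1 CPM after IgG. In all, 4 IgG libraries lay below every anti-Ang2 library, and anti-Ang2 5 lay below IgG 1. The log2 fold change was 1.75 ± 0.36, and the within-group SD of log2 CPM was 0.67, against 0.28 for Ctgf. Its call held in 11 of 20 alternative fits. The log2 fold change was 1.22 ± 0.33 with the macrophage sum and 1.79 ± 0.58 with the melanoma sum as covariates, and the call was lost in both. It was also lost with a replicate block, without anti-Ang2 1, 2 and 3 (1.604 ± 0.45) and without IgG 2, 3, 4 or 5 or anti-Ang2 3. Ankrd1 (ENSMUSG00000024803.8) spans chr19:36111961-36120099 (minus strand). Of its paralogs, Ankrd23 was at 1.35 ± 0.52 CPM after anti-Ang2 and 1.30 ± 0.25 CPM after IgG (adjusted p = 0.962 by edgeR), a difference whose sign changed under some alternatives, and Ankrd2 had 102 counts over all libraries and was not tested.

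Lats2, Amotl2 and Ajuba encode regulators of the Hippo cascade or of YAP itself, and their log2 fold changes were smaller than the within-group SD of log2 CPM over all 10 libraries. Lats2, the kinase that phosphorylates YAP and TAZ, had 331, 343, 310.3, 318 and 273 CPM after anti-Ang2, against 278, 264, 247, 229 and 362 CPM after IgG. IgG 5 exceeded every anti-Ang2 library, and the log2 fold change was 0.19 ± 0.12, or 0.31 ± 0.09 without IgG 5 and 0.09 ± 0.17 without anti-Ang2 1, 2 and 3. Amotl2, an angiomotin that holds YAP at cell junctions, had 245, 271, 326, 270.2 and 317 CPM after anti-Ang2, against 246, 216, 159, 193 and 409 CPM after IgG. Here too IgG 5 was the highest of all libraries. For Amotl2 the log2 fold change was 0.22 ± 0.22, or 0.49 ± 0.14 without IgG 5, 0.10 ± 0.20 without IgG 3 and 0.15 ± 0.23 without IgG 4. Ajuba, a LIM protein that inhibits LATS, had 101, 109.7, 127, 134 and 116 CPM after anti-Ang2, against 135, 126, 121, 105 and 164 CPM after IgG, with a log2 fold change of -0.15 ± 0.12. IgG 5 was once more the highest, and without it the log2 fold change of Ajuba was -0.05 ± 0.11. It was -0.10 ± 0.13 without anti-Ang2 1, -0.07 ± 0.17 without anti-Ang2 1, 2 and 3, and 0.01 ± 0.16 with the melanoma sum. Lats2 (ENSMUSG00000021959.15) spans chr14:57689662-57758388 (minus strand), Ajuba (ENSMUSG00000022178.10) chr14:54567472-54577558 (minus strand), and Amotl2 (ENSMUSG00000032531.15) spans chr9:102716672-102733418 (plus strand).

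Each of these was the leading member of its family in LEC, per length. Lats2 took 91.0 ± 1.27% of the summed FPKM of Lats1 and Lats2 after anti-Ang2 and 89.8 ± 0.88% after IgG. Amotl2 took 75.5 ± 2.80% and 68.8 ± 9.31% of the angiomotins, with Amotl1 next and Amot at 1.58 ± 0.34% and 2.19 ± 1.15%. Ajuba took 56.2 ± 4.96% and 63.0 ± 4.55% of its family, Limd1 38.8 ± 5.14% and 32.5 ± 4.78%, and Wtip the rest (SD, n = 5 each). None of the paralogs passed the test (adjusted p 0.190 for Limd1 to 0.967 for Lats1 by edgeR).

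The remaining genes encode membrane proteins. Crim1, a transmembrane protein that binds BMPs and VEGF-A, had 593, 744, 609, 650.5 and 717 CPM after anti-Ang2, against 457, 330.2, 319, 403 and 606 CPM after IgG. Of the anti-Ang2 libraries, 4 lay above every IgG library, and anti-Ang2 1 lay just below IgG 5. The log2 fold change was 0.65 ± 0.16. Crim1 was just above the threshold by edgeR (adjusted p = 0.0503). It was called in 4 of 20 alternative fits, among them DESeq2 (log2 fold change 0.66) and limma-voom. The authors' deposited comparison called it as well (adjusted p 0.00362 there, log2 fold change 0.57). In that comparison 4.25% of genes passed the same threshold and were higher. It rests on the same libraries, so its call is no separate support. By edgeR the log2 fold change of Crim1 was 0.76 ± 0.23 with the melanoma sum and 0.71 ± 0.19 with the macrophage sum. It was 0.68 ± 0.23 without anti-Ang2 1, 2 and 3. Crim1 (ENSMUSG00000024074.7) spans chr17:78200248-78376592 (plus strand).

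Axl, a receptor tyrosine kinase of the TAM family, had 26.9, 28.3, 32.6, 13.6 and 6.18 CPM after anti-Ang2, against 5.86, 17.3, 7.34, 12.995 and 12.1 CPM after IgG. Anti-Ang2 1, 2 and 3 were the highest of all libraries, and anti-Ang2 5 was next to the lowest. The log2 fold change was 0.95 ± 0.43. The melanoma marker sum of the same libraries was 5565, 3964, 4562, 1712 and 1129 CPM after anti-Ang2 and 439, 1748, 267, 1857 and 576 CPM after IgG, so that the 3 libraries of highest Axl were also those of highest melanoma sum. With this sum as a covariate the log2 fold change of Axl was -0.36 ± 0.39, and without anti-Ang2 1, 2 and 3 it was -0.18 ± 0.46. Without anti-Ang2 4 and 5 it was 1.38 ± 0.31. The part of melanoma cells in the Axl values was not tested. Axl (ENSMUSG00000002602.16) spans chr7:25757273-25788705 (minus strand).

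**Figure D3:**
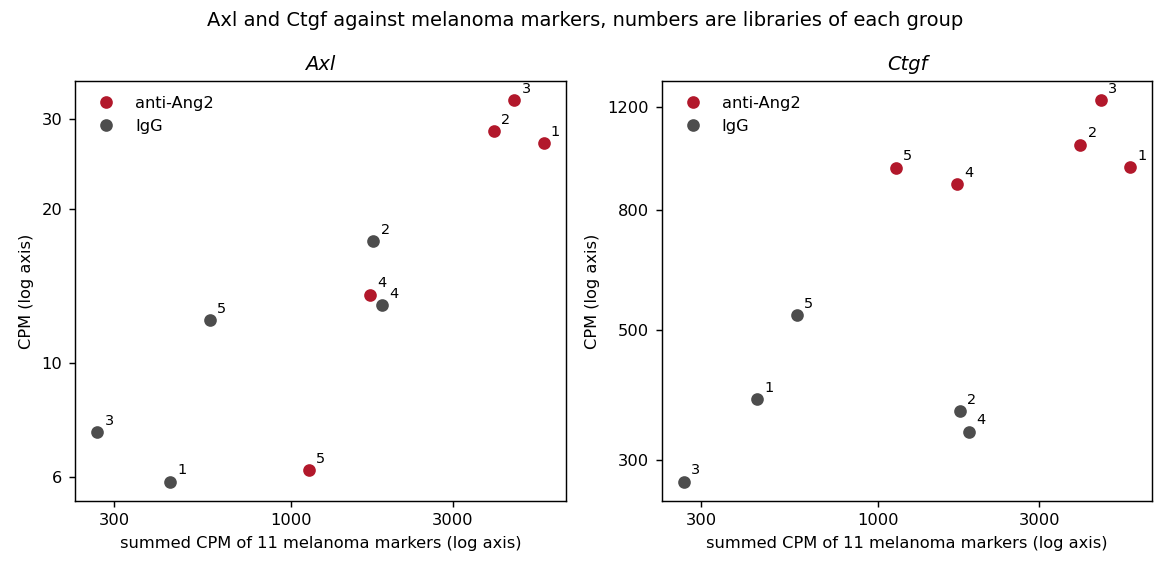
CPM of Axl (left) and Ctgf (right) against the summed CPM of 11 melanoma markers in each library, on log axes, for 5 anti-Ang2 (red) and 5 IgG libraries (grey), with the library number beside each point. Axl is highest, at 26.9 to 32.6 CPM, in the 3 libraries with the highest marker sum, all of them anti-Ang2. Ctgf is 946 and 887 CPM in anti-Ang2 5 and 4, whose sums of 1129 and 1712 CPM lie within the IgG range. The part of melanoma cells in either gene was not tested.

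Gas6, a ligand, and Mertk, the main receptor of the TAM family, were not among the 10 genes. Both passed the test, in opposite directions. Gas6, a secreted ligand of Axl, had 165, 156, 168, 164 and 156 CPM after anti-Ang2, against 393, 376, 474, 269.7 and 539.7 CPM after IgG. All anti-Ang2 libraries lay below every IgG library (log2 fold change -1.34 ± 0.15, adjusted p = 0.00111 by edgeR), and Gas6 passed in 20 of 20 alternatives. Mertk, the most abundant TAM receptor per length (18.6 ± 5.11 FPKM after anti-Ang2 and 10.97 ± 1.26 FPKM after IgG), rose with a log2 fold change of 0.75 ± 0.19 (adjusted p = 0.0479 by edgeR). It had 73.5, 99.3, 104, 48.7 and 64.2 CPM after anti-Ang2, against 47.3, 48.8, 38.1, 50.5 and 46.5 CPM after IgG. The call of Mertk held in 6 of 20 alternatives and was lost with a replicate block (adjusted p = 0.150 by edgeR), with the fibroblast sum (0.0604), without the low-count filter (0.0672) and without any of IgG 1 to 5 or anti-Ang2 1, 2 or 3 (up to 0.130). With the melanoma sum its log2 fold change was 0.37 ± 0.23 (0.532), with the macrophage sum 0.68 ± 0.23 (0.232), and without anti-Ang2 1, 2 and 3 it was 0.28 ± 0.14 (0.386). Pros1, the other ligand of the family, averaged 596 ± 91.9 CPM after anti-Ang2 and 739 ± 73.8 CPM after IgG (adjusted p = 0.185), and Tyro3, the third receptor, 8.40 ± 2.59 and 3.65 ± 3.65 CPM (0.318).

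**Figure D4:**
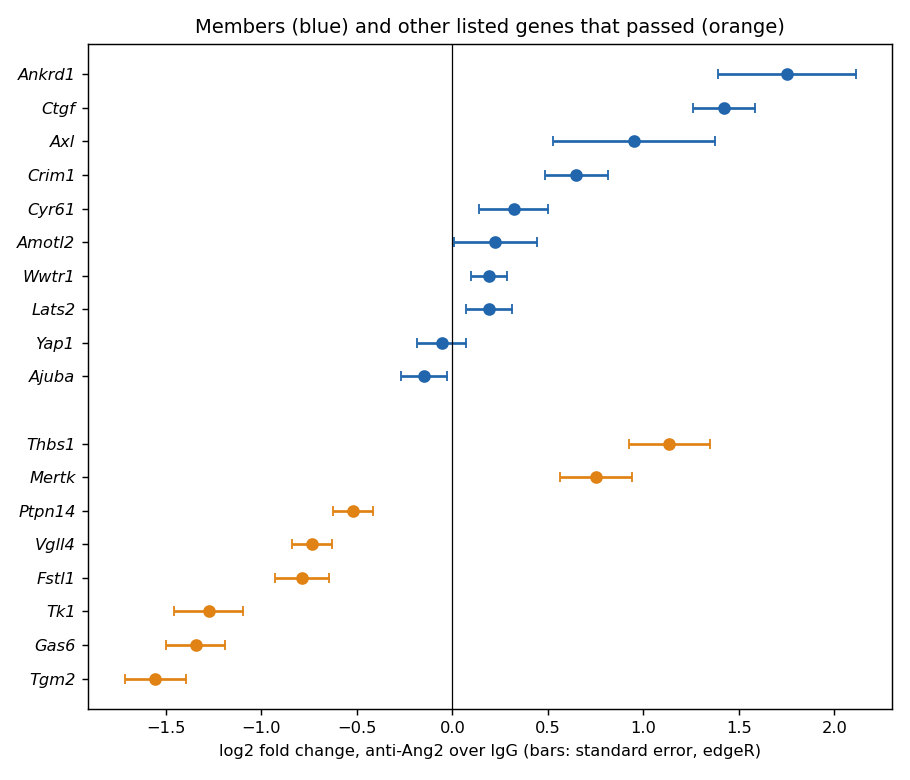
Log2 fold change (anti-Ang2 over IgG) with its standard error from edgeR for the 10 genes (blue, upper block) and for the 8 other listed pathway and target genes that passed the test (orange, lower block). The blue points run from 1.75 (Ankrd1) to -0.15 (Ajuba) and the orange ones from 1.14 (Thbs1) to -1.55 (Tgm2).

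The machinery that acts on YAP and TAZ was measured through 22 genes of Hippo kinases, adaptors and upstream regulators, all of which were tested. Of these, 0 rose and 1 fell by edgeR, where 1.34% and 2.8% of all tested genes did, with a median log2 fold change of -0.03. At an unadjusted p under 0.05, 4 were higher and 3 lower, and by DESeq2 2 and 2. The gene that fell was Ptpn14, a phosphatase that retains YAP in the cytoplasm, with 120, 108, 85.5, 121 and 119 CPM after anti-Ang2 and 144, 167, 160.2, 149 and 174 CPM after IgG. Its groups did not overlap (log2 fold change -0.52 ± 0.10, adjusted p = 0.0164 by edgeR). The call of Ptpn14 was lost without IgG 3 (0.0504), with a replicate block (-0.53 ± 0.11, 0.0627), with the melanoma sum (-0.45 ± 0.14, 0.200), with the macrophage sum (-0.42 ± 0.11, 0.129) and without anti-Ang2 1, 2 and 3 (-0.41 ± 0.10, 0.0961). Lats1 averaged 30.7 ± 2.88 CPM after anti-Ang2 and 31.0 ± 2.96 CPM after IgG, a difference whose sign changed under some alternatives.

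Among the nuclear partners, 4 TEAD genes and Vgll3 and Vgll4 were tested. By edgeR 0 rose and 1 fell, as also at an unadjusted p under 0.05 and by DESeq2. The median log2 fold change was 0.20. Vgll4, a cofactor that competes with YAP for TEAD, had 113.5, 123, 113.3, 141 and 123 CPM after anti-Ang2, against 187, 194, 250.4, 213 and 178 CPM after IgG. All anti-Ang2 libraries lay below every IgG library (log2 fold change -0.74 ± 0.10, adjusted p = 0.00256 by edgeR). The call of Vgll4 held in 18 of 20 alternatives, and was lost with the melanoma sum (-0.61 ± 0.14, 0.0718) and without anti-Ang2 1, 2 and 3 (-0.64 ± 0.15, 0.0864). Of the TEAD genes, Tead2 was the most abundant per length (8.01 ± 1.13 FPKM after anti-Ang2 and 7.93 ± 0.83 FPKM after IgG). It was followed by Tead4 (3.89 ± 0.85 and 4.91 ± 0.81 FPKM), Tead1 (2.39 ± 0.75 and 1.76 ± 0.43 FPKM) and Tead3 (0.82 ± 0.41 and 0.61 ± 0.22 FPKM). None of the 4 passed the test (adjusted p 0.287 for Tead4 to 0.979 for Tead2 by edgeR).

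Other reported target genes did not move as one. Of 14 tested genes that complete a pan-cancer signature of YAP and TAZ targets, 0 rose and 1 (Ptpn14, again) fell by edgeR. Their median log2 fold change was 0.44. At an unadjusted p under 0.05, 5 were higher and 3 lower, and by DESeq2 3 and 2. Of 42 genes from a signature of mammary cells, 1 rose and 4 fell by edgeR, with a median of 0.02. Over all tested genes 1.34% rose and 2.8% fell. At an unadjusted p under 0.05, 7 of the 42 were higher and 12 lower, and by DESeq2 3 and 7. The gene that rose was Thbs1, the matricellular protein thrombospondin-1, with 4229, 4832, 4532, 5184 and 5636 CPM after anti-Ang2 and 2879, 1763, 1333, 1948 and 3181 CPM after IgG. Its groups did not overlap (log2 fold change 1.14 ± 0.21, adjusted p = 0.0121 by edgeR). The call of Thbs1 was lost with the melanoma sum (1.33 ± 0.30, 0.0734), with the macrophage sum (1.14 ± 0.25, 0.0583) and without anti-Ang2 1, 2 and 3 (1.27 ± 0.29, 0.0856). Besides Gas6, the genes that fell were the crosslinking enzyme Tgm2, the thymidine kinase Tk1 and the secreted glycoprotein Fstl1. Tgm2 averaged 451 ± 30.3 CPM after anti-Ang2 and 1324 ± 320 CPM after IgG (log2 fold change -1.55 ± 0.16, adjusted p = 0.000882), and Fstl1 536 ± 81.0 and 924 ± 158 CPM (-0.79 ± 0.14, 0.00990). Tk1 averaged 7.71 ± 1.59 and 18.7 ± 2.88 CPM (-1.28 ± 0.18, 0.00255). Fstl1 lost its call with the melanoma sum (-0.85 ± 0.19, 0.0762) and without anti-Ang2 1, 2 and 3 (-0.77 ± 0.18, 0.0878).

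Of the 103 tested genes of the lists given here, 4 were higher in every anti-Ang2 than in every IgG library. The opposite held for 6. Of all tested genes, 2.34% and 3.76% showed these patterns, so nothing is read from the counts. Besides Thbs1, the genes that were higher (3) did not pass the test, and are named because their values were seen. Gadd45a, a stress-induced growth inhibitor, averaged 25.0 ± 3.65 CPM after anti-Ang2 and 17.4 ± 2.66 CPM after IgG (adjusted p = 0.0643 by edgeR). Emp2, a tetraspan membrane protein, averaged 18.5 ± 6.05 and 7.85 ± 3.08 CPM (0.0696), and the tropomyosin Tpm1 183 ± 40.5 and 134 ± 4.91 CPM (0.0804). Tpm1 belongs to a list of MRTF and SRF with their targets, a second actin-sensing pathway that acts on some of the same genes. Of its 13 tested genes, 0 rose and 0 fell by edgeR, with 2 higher and 1 lower at an unadjusted p under 0.05 and 2 higher by DESeq2 and by limma-voom, and the median log2 fold change was 0.07. Over all 103 tested genes of these lists, 2 rose and 6 fell, where 1.34% and 2.8% of all tested genes did.

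**Figure D5:**
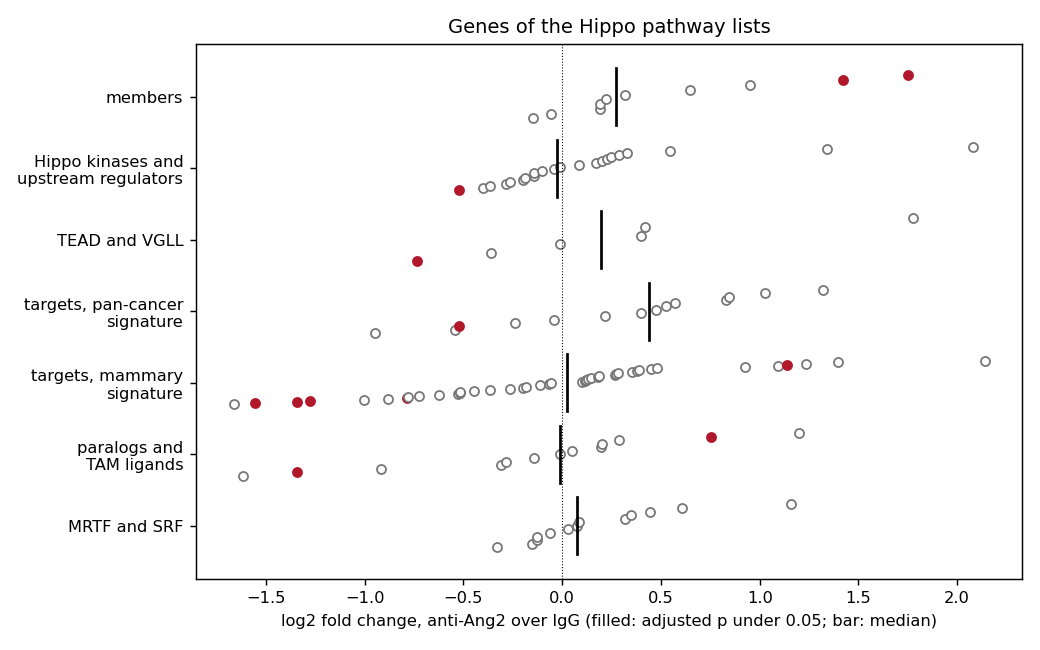
Log2 fold change (anti-Ang2 over IgG) of each gene in the set of 10 (top row, members) and in 6 lists of pathway, target and related genes, with filled red points at an adjusted p under 0.05 by edgeR and a bar at the median of each list. The medians lie between -0.03 and 0.44, and Ptpn14, Gas6 and 5 paralogs stand in 2 lists each.

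The levels of the 10 genes spanned a wide range. Per length, Cyr61 was the highest in both groups (1223 ± 262 FPKM after anti-Ang2 and 962 ± 200 FPKM after IgG, SD, n = 5 each) and Axl the lowest (4.42 ± 2.23 and 2.27 ± 0.93 FPKM). After anti-Ang2, Ctgf stood above Wwtr1 (368 ± 45.6 against 171 ± 12.8 FPKM) with no overlap, and Ankrd1 (47.8 ± 23.6 FPKM) lay among Amotl2, Lats2 and Ajuba. After IgG the order of FPKM below Cyr61 was Wwtr1 (148 ± 16.2), Ctgf (135 ± 31.2), Crim1 (72.4 ± 18.8), Amotl2 (39.8 ± 14.8), Lats2 (38.8 ± 6.39), Ajuba (38.1 ± 5.67), Ankrd1 (14.1 ± 5.69) and Yap1 (5.32 ± 0.81). The ranges of Wwtr1 and Ctgf overlapped, as did those of Amotl2, Lats2 and Ajuba. Single libraries led many of the genes at once. Among anti-Ang2 libraries, anti-Ang2 3 was the highest in 5 of the 10 genes and anti-Ang2 2 in 4, while anti-Ang2 1 and anti-Ang2 5 were the lowest in 4 each. IgG 5 was the highest IgG library in 6 and IgG 3 the lowest in 4.

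Likeness between genes was measured as the root mean square difference of log2 CPM, each gene centred on its own mean, over the 10 libraries. This keeps the difference between treatments, so a small value can reflect a like fold change and does not show likeness apart from treatment. The log2 fold changes were 1.02 to 1.37 in the 5 genes nearest to Ctgf. They were 0.15 to 0.48 in those nearest to Cyr61. The 5 genes most like Ctgf were the netrin Ntn4 (0.28), Thbs1 (0.28), the vasoactive peptide adrenomedullin, Adm (0.29), the ERK pathway inhibitor Spry1 (0.30) and the phosphatase Cdc14b (0.31), where the median of all tested genes was 0.85. Ntn4 averaged 285 ± 15.8 CPM after anti-Ang2 and 115 ± 27.3 CPM after IgG, and Cdc14b 11.05 ± 1.54 and 5.17 ± 0.71 CPM. The 5 most like Cyr61 were others: Rnf39 (0.14), Ears2 (0.14), the phosphatase Dusp1 (0.15), Utp18 (0.16) and Ier5l (0.16), against a median of 0.47. Dusp1 averaged 1421 ± 231 CPM after anti-Ang2 and 1285 ± 347 CPM after IgG. Within the 10 genes, Crim1 was the nearest to Ctgf (0.43), and Lats2 (0.25) and Amotl2 (0.26) were the nearest to Cyr61.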

How the data were processed

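RNA of LEC from 10 tumours was sequenced, and the treatment label gave the groups (5 and 5, independent replicates per the series design). SMART-Seq v4 marks no strand, so overlapping antisense transcripts are not separated. STAR, featureCounts, DESeq2 and mm10 are named in the submitters' processing notes, without versions. The authors deposited raw counts per gene, the input of all tests here. FPKM, per the file headers, served for levels between genes. The authors made values named TPM, per the file headers, but these sum to more than TPM can, so they were taken as a score and not used. The authors also gave baseMean, a mean of scaled counts (a signal), per the file headers, which was not used. From the authors' deposited comparison, log2 fold change and p-value are given for Crim1, and the share of genes past the threshold. There were 0 unused value columns. Positions came from GENCODE M21 by gene ID, ignoring ID versions.

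Counts were tested with edgeR 4.0.16 in R 4.3.3 (quasi-likelihood F test, two-sided, TMM, filterByExpr at its settings of 10 counts and 15 in total, model of treatment alone), with Benjamini-Hochberg adjustment over 16240 genes and calls at 0.05. The SE was derived from the F statistic. Log2 CPM used a prior count of 2. Alternatives used DESeq2 1.42.0, limma 3.58.1 (voom with quality weights), other normalization and filtering, a replicate block, marker sums (log2) as covariates and left-out libraries. Fits were tested on simulated data. The 10 genes and all lists were chosen with earlier results of these data known. The other named genes were all listed genes that were called, the paralogs, the TEAD genes and, for Ctgf and for Cyr61, the 5 genes of nearest profile. Other tools were Python 3.11.15, pandas 2.3.3, numpy 2.4.6 and matplotlib 3.10.9.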

Additional observations from a re-analysis of the deposited data

Results flagged for a closer look

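Among 84 groups of 5 libraries examined for a single library far from the rest, 5 held one, and chance gives about 1 in 20. Yap1 in anti-Ang2 2 (59.1 CPM) and Wwtr1 in the same library (925 CPM) each stood above the other anti-Ang2 libraries (40.9 to 45.9 CPM and 713 to 771 CPM). Pros1 in IgG 1 (609.9 CPM) was low against the other IgG libraries (745 to 785 CPM). Rnf39 and Dusp1 in IgG 5 (109 and 1896 CPM) were high against the other IgG libraries (53.9 to 69.1 CPM and 1071 to 1195 CPM).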

How the results depend on the processing

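The fit reported called 217 genes higher and 454 lower, 2 and 0 of the 10 genes, and 2 and 6 of the other listed genes. Over all genes DESeq2 called 810 and 880, limma-voom 670 and 780, the fit with the macrophage sum 49 and 172, with the melanoma sum 24 and 98, without anti-Ang2 1, 2 and 3 55 and 178. Without anti-Ang2 4 and 5, chosen after seeing the data, 531 were higher. Leaving out 1 library gave 82 to 326 higher and 259 to 468 lower. Of the 10 genes, 1 was called higher with the melanoma sum, the macrophage sum and without anti-Ang2 1, 2 and 3, and 1 to 2 without 1 library. Of the other listed genes, DESeq2 called 11 higher and 12 lower, limma-voom 9 and 12, the melanoma sum 0 and 3, the macrophage sum 0 higher, no low-count filter 1 higher, the fit without anti-Ang2 1, 2 and 3 0 higher, that without anti-Ang2 4 and 5 8 higher, and those without 1 library 1 to 7 higher and 5 to 8 lower. The cause was not tested.

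With the numbers of the titles as a replicate block, 82 genes were higher and 268 lower, 1 of the 10 genes was called higher (Ankrd1 lost its call) and 1 other listed gene was higher (Mertk lost its call, as did Ptpn14, which was lower). The numbers were not taken as pairs: deviations of same-numbered libraries correlated at -0.12 to 0.11 only. Genes near 0 changed sign: Lats1 was at 0.0593 with the melanoma sum, 0.0842 with the macrophage sum and 0.0929 without anti-Ang2 1, 2 and 3 (-0.0480 to 0.0417 without 1 library). Ankrd23 was at -0.0472 by limma-voom, -0.0165 with the replicate block and -0.0432 without anti-Ang2 4 and 5 (-0.17 to 0.19 without 1 library). Tead2 was at 0.00049 with DESeq2 size factors and 0.0010 by DESeq2 (-0.0579 to 0.0529 without 1 library), Amot at 0.0023 by limma-voom, and Limd1 and Wisp1 at -0.0174 and -0.22 with the melanoma sum. Ctgf, Gas6, Tgm2 and Tk1 kept their direction and call in all 20 alternatives. All alternatives refit libraries whose results were known when the genes and lists were chosen. They therefore show dependence on the processing and give no independent support. Precision is limited by 5 libraries a group and, for genes of few counts such as Ankrd23, by depth.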
